A study of Mus musculus with 1298 samples.

Results

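Dermal fibroblasts of the *Pax7* lineage at E16.5 were selected on 4 marker genes, *Twist2*, *Lum*, *Egfl6* and *Thy1*. A cell was chosen by its panel scores, each the mean over 4 genes of log2(1 + counts per 10000 counts of the cell), and counted as a dermal fibroblast when the dermal panel scored highest of 9 panels and reached at least 0.7. The rule found 360 of the 1291 cells of that day and of 3916 single cells in the deposited tables of filtered counts. The paper reported keeping more cells than these after its own filters, so all shares refer to the deposited tables. Of these, 62 were Smart-seq2 cells (18.1% of the E16.5 cells on that platform) and the remainder were 10x cells (31.4% of 949). Because the 4 genes chose the cells, their values below are a description and support nothing by themselves. The same holds for the low values of the genes of the other 8 panels, which had to score below the dermal panel.

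The embryos carried Pax7CreER:R26R-stop-EYFP, an allele pair in which tamoxifen lets Cre recombinase, made where *Pax7* is expressed, switch on a yellow fluorescent protein (YFP) that all descendants keep. Tamoxifen was given at E9.5 (75 µg/g), and YFP-positive cells were sorted from embryos freed of head, limbs and viscera on 3 days, from E12.5 through E14.5 to E16.5, without an untreated or unlabelled control among the single cells. Cells of several embryos were pooled per day, so a value comes from a pool and not from an animal: there was 1 10x library per day, and the Smart-seq2 dermal cells of E16.5 came from 4 plates with 12, 13, 22 and 15 of them. The names of the Smart-seq2 cells carry a b and a number, which is read here as the plate. The label therefore reports *Pax7* expression around the day of induction in any tissue, and all 360 cells had YFP counts, as the study had removed cells without them.

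Dermal fibroblasts are the matrix-producing cells of the skin. In the back they descend from the dermomyotome of the somites, where Wnt signalling through beta-catenin is known to set dermal fate and to precede expression of the transcription factor Twist2. In later fetal skin the upper dermis, next to the epidermis, comes to differ from the lower dermis and the fat-forming hypodermis, and small groups of upper cells gather under the hair placodes as dermal condensates.

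A 10x dermal fibroblast held up to 3833 UMIs (median 1406.5, with a median of 642.5 genes), and a Smart-seq2 one 65625 to 1620260 expected counts (median 897358, with 7109 genes). No member exceeded 8% mitochondrial counts. Of the 10x barcodes, 3 occurred in more than 1 library, and 1 of these belonged to a member. Levels are given as CPM, the summed counts of a group of cells scaled to the same total in every group. They were not divided by transcript length, so they are compared between samples and not between genes. Counting intervals are 95% exact and cover counting error only. In pooled sums a change in the share of cells with a gene and a change in its level per cell cannot be told apart.

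Every Smart-seq2 dermal fibroblast stood far above the score limit (2.44 to 4.27, median 3.54), whereas the 10x scores ran down to it (0.71 to 4.50, median 2.05). The 3 lowest 10x members scored 0.707, 0.709 and 0.714, and 1 cell with the dermal panel highest fell just outside at 0.699. On 10x, 43 members had a count of all 4 panel genes, 93 of 3, 97 of 2 and 65 of only 1. On Smart-seq2, 61 of 62 had all 4. A second panel also reached the limit in 150 of the 10x members and in 24 of the 62 Smart-seq2 members, and it was the late progenitor panel (*Ogn*, *Aspn*, *Postn*, *Igf1*) that did so in 58 and 16 of them. In the other direction, 78 10x cells and 86 Smart-seq2 cells of E16.5 passed the dermal limit but scored highest for the late progenitor panel. No doublet caller was run.

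**Figure D1:**
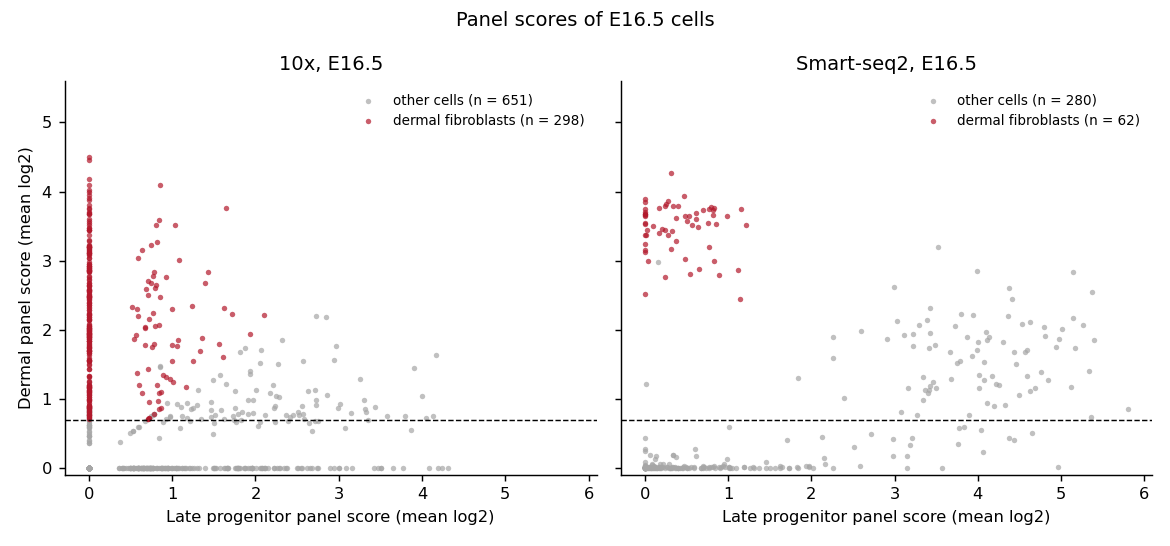
Dermal panel score (vertical axis, mean log2) against late progenitor panel score (horizontal axis, mean log2) of each E16.5 cell, on 10x (left) and Smart-seq2 (right); red points are the dermal fibroblasts, grey points all other cells, and the dashed line is the limit of 0.7. On Smart-seq2 the dermal fibroblasts form a group above 2.44, while on 10x they reach down to the limit.

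*Twist2*, a basic helix-loop-helix repressor of the dermis, stood at 1112 CPM in the 10x dermal fibroblasts (interval 1016 to 1214). On the 4 Smart-seq2 plates it was 1179, 1092, 932 and 1271 CPM. All other E16.5 cells had 32.2 CPM on 10x and 41.99 CPM on Smart-seq2. A UMI of *Twist2* was found in 76.5% of the dermal fibroblasts and in 2 muscle panel cells of the same library (1.45%), whose median depth was higher, at 1687 UMIs. *Lum*, which encodes the collagen-binding proteoglycan lumican (chromosome 10, 97565128 to 97572703, GRCm38), was at 1051 CPM on 10x and at 3516, 5376, 5029.6 and 3859 CPM on the plates. *Egfl6*, an EGF-repeat matrix protein (chromosome X, 166523007 to 166585720), was at 439.2 CPM on 10x and at 2254, 1634, 2274 and 2827 CPM on the plates. *Thy1* (CD90), a surface glycoprotein used to sort fibroblasts, was at 461.6 CPM on 10x and at 116.9, 83.5, 86.2 and 76.6 CPM on the plates. The plates differed from each other by less than 2-fold in each of the 4 genes.

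Markers of other cell types were checked as whole lists. The muscle, brown adipocyte and pericyte lists hold genes of the other panels, so the selection itself kept their values low. Of the keratinocyte list, 3 of 8 measured genes had a count on 10x, summing to 31.4 CPM against 48.6 CPM in all other E16.5 cells, with *Krt15*, *Epcam*, *Trp63*, *Perp* and *Krtdap* at 0. The endothelial list summed to 2.24 CPM on 10x, with *Cdh5*, *Kdr*, *Emcn* and *Tie1* at 0; its Smart-seq2 sum of 43.6 CPM was nearly all *Pecam1*, which had a similar sum in muscle panel cells (46.8 CPM for the list). The immune list summed to 2.24 and 0.216 CPM (0 and 1.65 CPM in all other cells), and the melanocyte and Schwann list to 6.72 and 10.3 CPM (4.49 and 10.3 CPM). Muscle markers summed to 44.8 CPM on 10x and 1.37 CPM on Smart-seq2, against 2860 and 6128 CPM in muscle panel cells. Brown adipocyte markers summed to 125.5 CPM on 10x and 13.0 CPM on Smart-seq2 (1.36 to 29.2 CPM over the plates), against 11315 and 28427 CPM in adipocyte panel cells. *Fabp4*, the fatty acid binding protein of adipocytes, accounts for most of the 10x sum: it had a UMI in 24 dermal fibroblasts (8.05%) and in 9 muscle panel cells (6.52%). Pericyte markers summed to 29.1 and 24.96 CPM, red cell markers to 4.48 and 0.323 CPM, and cartilage and tendon markers to 49.3 and 49.1 CPM.

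Outside the 36 genes of the panels, 795 genes reached 100 CPM in the dermal fibroblasts on both platforms. They were ranked by the smaller of the 2 platforms' log2 ratios to all other E16.5 cells, and the first 30 are described here, without a test. *Wif1*, a secreted protein that binds Wnt ligands (chromosome 10, 121033960 to 121100650), was first, at 127.7 CPM on 10x against 5.24 CPM in all other cells. On the plates it was 1065, 688, 985 and 980 CPM, and 60 of 62 Smart-seq2 cells had a count. *Nkd1*, an inhibitor that binds Dishevelled and is induced by Wnt signalling, came after *Crabp1*, at 157.4 CPM on 10x against 8.98 CPM. On the plates *Nkd1* was 346.8, 346.2, 210 and 338.2 CPM against 17.1 CPM in the other cells. *Tcf4*, a transcription factor of the E protein family further down the list, was at 731 and 813 CPM against 185.6 and 200 CPM.

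*Crabp1*, which binds retinoic acid in the cytoplasm, ranked second: 1177 CPM on 10x against 62.9 CPM, and 1563, 1409.5, 1859 and 1746 CPM on the plates against 34.7 CPM. Several signalling and guidance genes followed. *Robo2*, a receptor for Slit proteins, was at 103.1 and 322.2 CPM against 7.48 and 21.2 CPM. *Penk*, the precursor of the enkephalins, was at 419.1 and 1086 CPM against 41.9 and 87.2 CPM. *Cxcl14*, a chemokine, was at 165.8 and 116.6 CPM against 13.5 and 14.4 CPM. *Efna5*, a membrane-bound ephrin, was at 220 and 333.8 CPM against 27.7 and 45.2 CPM. *Pdgfra*, the receptor for PDGF-A that marks many mesenchymal cells, was at 177.04 and 387.02 CPM against 33.7 and 72.99 CPM.

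Transcriptional regulators among the 30 were *Snai1*, a zinc finger repressor (199.4 and 390 CPM against 27.7 and 70.5 CPM), *Mef2c* (242.03 and 268.7 CPM against 53.1 and 46.7 CPM) and the chromatin remodeller *Chd3*. *Cdh11*, the cadherin of mesenchymal cells, was at 197.2 and 1153 CPM against 40.4 and 157.4 CPM. Of the matrix, *Fbln1*, *Itih5* and the secreted protease *Htra1* were included, and *Htra1* closed the list at 132.2 and 671 CPM against 41.2 and 141.3 CPM. The remaining leading genes were *Emp2*, *Ctsh*, *Cped1*, *Tns3*, *Ptk7*, *Igsf10*, *Lhfp*, *C1qtnf2*, *Ccnd1*, *Ddah1*, *Hmgn3*, *Tpst1*, *Gas1* and *Eva1b*. For each of the 30 genes, every plate's dermal sum lay above every plate's sum of the other cells. This follows in part from how the genes were chosen. Against late progenitor panel cells alone, 24 of the 30 genes were at least 2-fold higher on both platforms. The other 6 were *C1qtnf2*, *Itih5*, *Tpst1*, *Fbln1*, *Eva1b* and *Htra1*, with *Itih5* at 162.3 and 451.6 CPM in that class against 197.2 and 789 CPM in dermal fibroblasts.

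**Figure D2:**
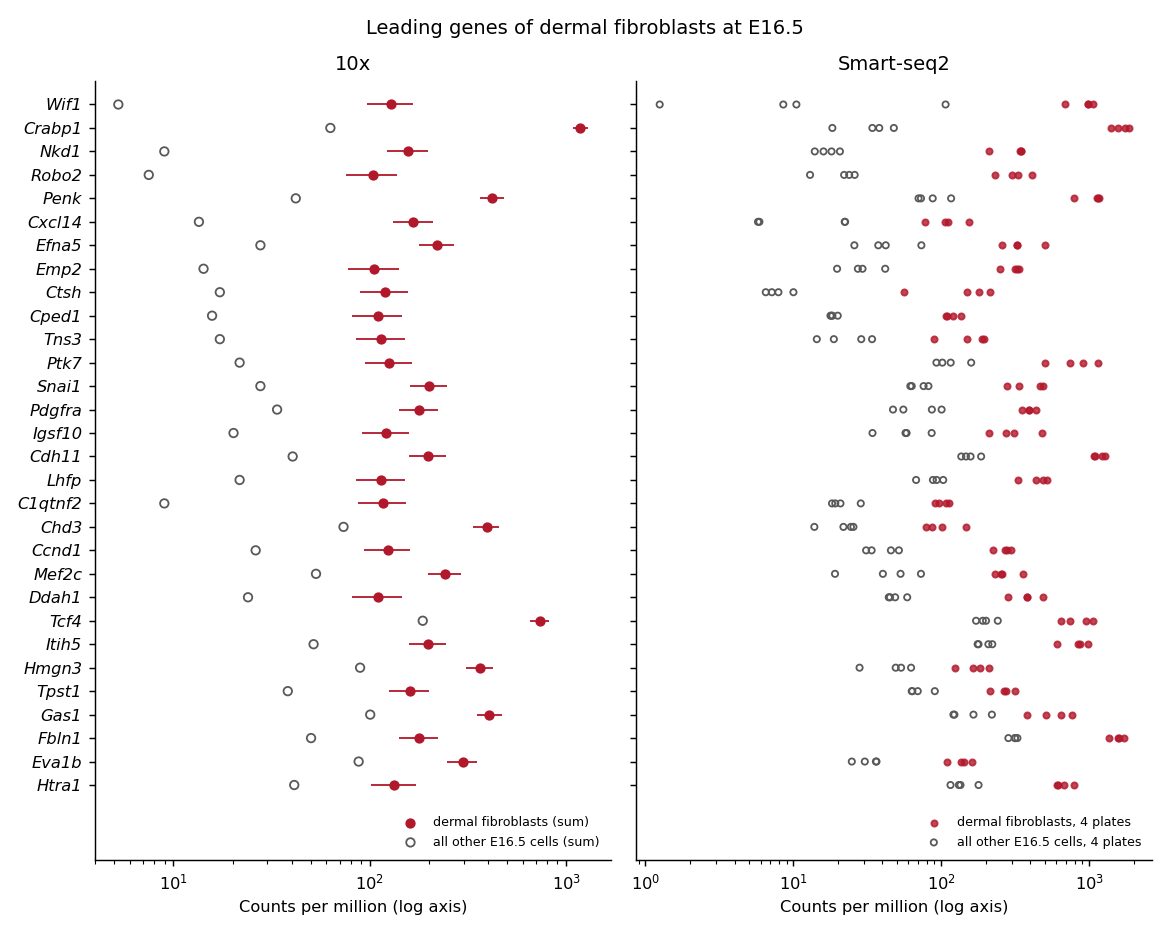
CPM (log axis) of the 30 leading genes in E16.5 cells. Left, 10x, with the dermal fibroblast sum as filled points with 95% counting intervals and all other cells as open points; right, Smart-seq2, with a point for each of 4 plates. Filled and open points do not overlap for any gene, from *Wif1* at the top (127.7 against 5.24 CPM on 10x) to *Htra1* (132.2 against 41.2 CPM).

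Dermal fibroblasts were next compared with the late progenitor panel cells, which numbered 190 on 10x at E16.5. Of 5024 genes with at least 20 CPM in 1 of the 2 classes on both platforms, 4.46% were at least 2-fold higher in dermal fibroblasts on both platforms and 6.95% at least 2-fold lower. These shares are the background for the lists below. Panel genes chose the cells of both classes, so their part in the list counts is no finding. The median log2 ratio over the 5024 genes was -0.07 on 10x and 0.09 on Smart-seq2. With 1 sum per class and platform, these folds have no test.

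Of 14 upper dermis genes, 11 had enough counts, and 8 of them were at least 2-fold higher in dermal fibroblasts while 2 were lower (median log2 ratios 1.72 and 2.53). *Col7a1*, which forms the fibrils that anchor the epidermal basement membrane, was at 94.1 CPM against no UMI, and at 286.4, 171.1, 215.5 and 382.995 CPM on the plates against 1.44 CPM. *Col7a1* was detected in 58 of 62 Smart-seq2 dermal fibroblasts. *Stmn2*, a tubulin-binding protein, was at 233.1 and 236.2 CPM against 9.94 and 5.96 CPM, and varied most between plates (422.4, 43.5, 271.4 and 214.95 CPM). The other higher genes were *Crabp1*, *Lrig1*, *Col23a1*, *Wif1*, *Nkd1* and *Cxcl14*, and *Dpp4* (CD26) and *Dkk2* were the lower ones. Of 7 measured dermal condensate genes of 18, 4 were 2-fold higher (*Sox18*, *Trps1*, *Ptch1* and *Gli1*) and none was lower.

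The lower dermis and hypodermis list gave the opposite picture: of 13 measured genes of 15, none was 2-fold higher and 10 were 2-fold lower (median log2 ratios -1.90 and -4.69). *Dlk1*, a membrane protein of preadipocytes, was at 2639.9 CPM on 10x against 9841 CPM, and at 84.7 CPM on Smart-seq2 against 1029 CPM. *Mfap5*, a microfibril protein, had counts in 2 of 62 Smart-seq2 dermal fibroblasts (0.305 CPM against 548 CPM). On 10x it stood at 38.1 CPM against 414.05 CPM, but in 5 cells only. *Clec3b* (tetranectin) had no count in the 62 cells, against 56.1 CPM in the late progenitor panel cells. *Ackr3*, a scavenger receptor for CXCL12, went against the rest of its list on Smart-seq2, at 213.5 CPM against 89.5 CPM.

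Wnt inhibitors and feedback genes divided between the 2 classes. Of 10 measured genes of 21, 4 were 2-fold higher in dermal fibroblasts and 5 were 2-fold lower (median log2 ratios -0.12 and -0.50). *Wif1*, *Nkd1*, *Lef1* and *Kremen1* were higher, and *Sfrp1*, *Sfrp2*, *Sfrp4*, *Dkk2* and *Dkk3* lower. *Lef1*, the transcription factor that carries Wnt signals to DNA, was at 62.7 CPM on 10x against no UMI in the late progenitor panel cells, and at 204.9, 112.6, 221.7 and 214.2 CPM on the plates against 0.660 CPM. It was detected in 56 of 62 Smart-seq2 dermal fibroblasts. *Sfrp1*, a soluble Wnt antagonist, was at 4.48 CPM on 10x and 7.19 CPM on Smart-seq2 against 162.3 and 117.7 CPM. *Axin2*, a general readout of beta-catenin activity, did not reach the minimum on Smart-seq2, and had 29.1 CPM against no UMI on 10x and 17.5 CPM against 2.53 CPM on Smart-seq2. Among 15 Wnt ligands in both tables, 2 were measured. *Wnt4* was at 58.3 and 20.1 CPM against no UMI and 0.699 CPM, and *Wnt5a* at 42.6 and 80.4 CPM against 33.1 and 55.9 CPM. Of 6 measured Wnt receptors of 18, 1 was 2-fold higher, *Fzd7*, and none was lower.

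Collagens had a common core. *Col1a1*, the main chain of fibrillar type I collagen, was at 7236 CPM on 10x in dermal fibroblasts and at 8032 CPM in late progenitor panel cells, and at 23465 and 20124 CPM on Smart-seq2. Its plates ranged from 15418 to 35869 CPM. *Col3a1* was at 6237 and 24714 CPM against 6727 and 18341 CPM. Of 22 measured collagen genes, 4 were 2-fold higher (*Col7a1*, *Col8a1*, *Col23a1* and *Col26a1*) and 6 were 2-fold lower, with *Col14a1* at 47.1 and 28.9 CPM against 384.2 and 548 CPM. Of 7 measured small leucine-rich proteoglycans, *Lum*, which the rule used, alone was higher and 4 were lower. *Ogn* and *Aspn*, also of this family, were in the late progenitor panel, so the selection itself set them lower. *Dcn* (decorin) was at 1073 and 3280.1 CPM against 1057 and 2692 CPM. Of 19 elastic fibre genes, all measured, none was 2-fold higher and 9 were 2-fold lower. *Eln* (elastin) was at 110 and 66.6 CPM against 490.2 and 222.7 CPM, while *Mfap2* was at 603 and 1476 CPM against 579.7 and 1513 CPM. Of 19 measured adhesive and other matrix genes, 9 were 2-fold lower, with *Postn*, which the rule used, at 156.9 and 83.5 CPM against 1785 and 6002 CPM and *Fn1* (fibronectin) at 477.3 and 258.9 CPM against 1083 and 783 CPM. Of 22 measured collagen processing and matrix enzymes, none was higher and 2 were lower.

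**Figure D3:**
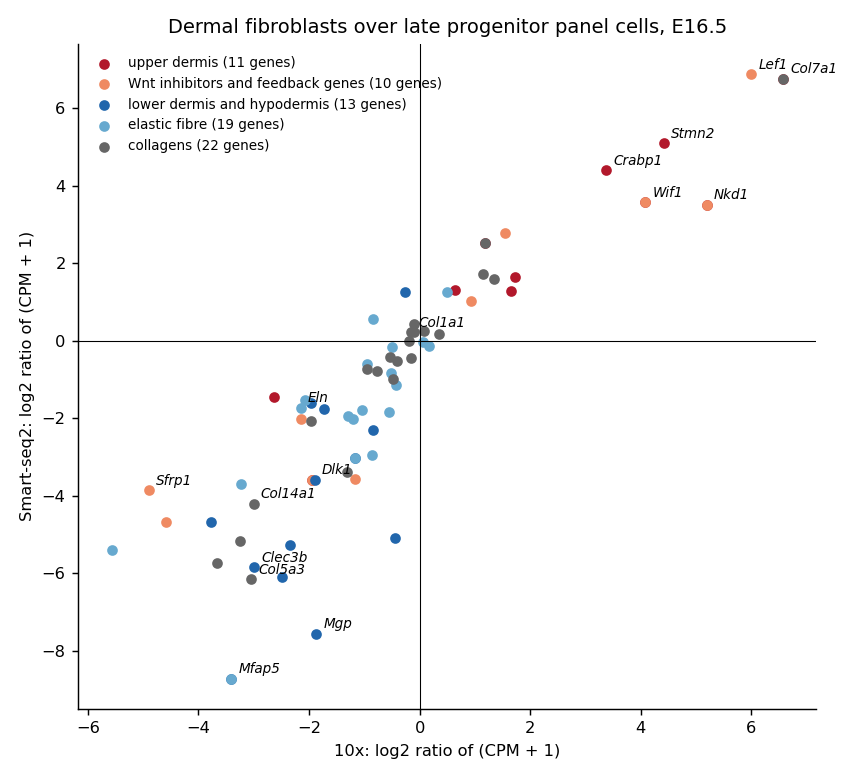
Log2 ratio of (CPM + 1) in dermal fibroblasts over late progenitor panel cells at E16.5, on 10x (horizontal axis) and Smart-seq2 (vertical axis), for measured genes of 5 lists shown in 5 colours; a gene of 2 lists is drawn in the colour of the later list. *Lef1*, *Col7a1*, *Nkd1* and *Wif1* lie at the upper right, *Col1a1* near 0, and *Mfap5* and *Sfrp1* at the lower left.

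In the retinoid pathway, 3 of 7 measured genes were 2-fold higher and 3 were lower. *Crabp1*, *Rarg*, a retinoic acid receptor, and *Cyp26b1*, the enzyme that degrades retinoic acid, were the higher ones. *Cyp26b1* was at 174.8 and 86.2 CPM against 6.62 and 7.30 CPM. *Crabp2* and *Rbp4* were among the lower ones. Of 19 measured growth factors and receptors, 5 were higher and 3 lower. *Fgfr2* was at 47.1 and 118.7 CPM against 9.94 and 8.98 CPM, and *Pth1r*, the receptor for parathyroid hormone-related protein, at 206.2 and 80.8 CPM against 39.7 and 3.74 CPM. *Igf2* was at 132.2 and 98.7 CPM against 689 and 2469.99 CPM. All 6 Igf binding proteins were measured and 4 were 2-fold lower, among them *Igfbp4* at 125.5 and 117.6 CPM against 931 and 1554 CPM. Of 18 measured dermal and mesenchymal transcription factors, 7 were higher and 6 lower. *Bcl11b* was at 96.4 and 81.6 CPM against 6.62 and 2.36 CPM. *Ebf2*, a regulator of brown fat commitment, was at 17.9 CPM on 10x and 0.0719 CPM on Smart-seq2 against 112.6 and 222.9 CPM. Of 9 measured adipogenic genes none was higher and 6 were lower, and of 3 measured cyclin-dependent kinase inhibitors 1 was lower, *Cdkn1c*, at 825 and 110.9 CPM against 2554 and 634 CPM.

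The dermal fibroblasts were not alike in their cell cycle genes. Of 18 genes of the G2 and M phases, at least 10 had a count in 20 of the 62 Smart-seq2 cells: 5 of 12, 2 of 13, 12 of 22 and 1 of 15 on the 4 plates. The plates thus differed widely in this share. After thinning each cell to 100000 counts, 19 of 61 cells at E16.5 (31.1%, 19.9% to 44.3%) and 18 of 41 dermal panel cells at E14.5 (43.9%, 28.5% to 60.3%) still had at least 10, and the intervals overlapped. At 1000 UMIs no 10x cell of either day reached 10 genes, so the measure could not be read there. Of 26 measured cell cycle genes, 2 were 2-fold higher than in late progenitor panel cells on both platforms and none was lower.

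A few dermal fibroblasts carried *Sox18* (chromosome 2, 181669836 to 181671640), a transcription factor of dermal condensates and of endothelium. It had a count in 7 10x cells (2.35%, 0.9495% to 4.78%) and in 8 of 62 Smart-seq2 cells (12.9%, 5.74% to 23.9%), the latter spread over all 4 plates (2, 1, 1 and 4 cells). *Lum* had no UMI in the 7 10x cells, while most other 10x members had one, and stood at 1803 CPM in the 8 Smart-seq2 cells against 4921 CPM in the other 54. *Trps1*, a zinc finger protein of hair follicle mesenchyme, was at 526.98 CPM against 158.2 CPM on Smart-seq2 and at 278.5 CPM against 87.3 CPM on 10x. *Ptch1*, the Hedgehog receptor and target, was at 286.3 CPM against 57.7 CPM and at 557 CPM against 59.7 CPM. On 10x, *Trps1* and *Ptch1* each had a UMI in only 3 of the 7 cells. *Gli1*, another gene of the condensate list, differed little on Smart-seq2, at 39.03 CPM against 31.2 CPM, and had a UMI in 1 of the 7 10x cells. *Prdm1* was at 249.9 CPM against 41.5 CPM and *Bmp3* at 266.9 CPM against 0.0843 CPM on Smart-seq2, while neither had a UMI in the 7 10x cells. *Sox2*, another condensate gene, had a count in 1 of the 8 cells and in none of the 7. The endothelial genes *Cdh5* and *Emcn* had no count in any of the 15 cells. *Pecam1* had one in all 8 Smart-seq2 cells (55.5 CPM) and in all other 54 (39.7 CPM), and in none of the 7 10x cells. *Kdr* had one in 1 cell (3.48 CPM) and *Tie1* in 5 cells at 0.719 CPM. These cells were picked by *Sox18* after its values were seen, and the number of cells is small, so these levels are a description.

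The change from E14.5 to E16.5 is a comparison that the selection of cells did not fix, except for the genes of the panels, which chose the cells on both days. The same rule found 20.04% of 968 10x cells (17.6% to 22.7%) and 41 Smart-seq2 cells (12.6%, 9.18% to 16.7%) at E14.5, against 31.4% (28.5% to 34.5%) and 18.1% (14.2% to 22.6%) at E16.5. After thinning to 1000 UMIs the 10x shares were 22.98% and 29.3%, and 2 and 89 shallower cells were left out. The dissection, the sort and the pool of embryos set these shares as well, and their part was not tested. The E14.5 10x cells were deeper, with a median of 5556 UMIs. Of the 41 Smart-seq2 cells at E14.5, plates 1, 2 and 3 held 13, 24 and 4.

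Counts were summed per platform and day, and the 4 sums were compared with edgeR's quasi-likelihood test with platform as a term. Of 12913 genes tested, 34 were higher at E16.5 (0.263%) and 57 lower (0.441%) at an adjusted p under 0.05, and the median log2 fold change of all genes was -0.04. Of the 91 genes, 87 went the same way on both platforms. With 1 residual degree of freedom the spread was in effect shared by all genes, so p-values measure the spread between these sums and not between embryos. The common dispersion, edgeR's measure of that spread, was 0.1641 here and 0.6034 for the Smart-seq2 sums per plate given below. The main test thus assumed less spread than lay between Smart-seq2 plates of the same day, and its p-values are small for that reason too. Day, pool, library and depth cannot be told apart, and on Smart-seq2 the labels give the E16.5 plates 1 sequence batch and the E14.5 plates others. Summing the Smart-seq2 cells per plate (2 plates at E14.5 with at least 5 cells, 4 at E16.5) gave 120 higher and 52 lower genes. The cells are those of the Smart-seq2 sums in the main test, so a shared direction is no separate support. Of the plate sum calls, 19 were also among the 91, all in the same direction. Listed after their values were seen, these were *Aldh1l2*, *Cav1*, *Cldn10*, *Cxcl2*, *Itih5*, *Mrgprf*, *Olfr1033*, *Prss23*, *Rgcc*, *Zbtb16* and *Zc3hav1*, higher, and *Calb1*, *Casz1*, *Col8a2*, *Epha8*, *Notum*, *Slc39a2*, *Sphkap* and *Tex15*, lower.

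*Itih5*, which binds hyaluronan in the matrix (chromosome 2, 10153571 to 10256529), was the leading gene that rose. It went from 21.1 to 197.2 CPM on 10x. On Smart-seq2 it went from 17.7, 83.7 and 0 CPM on the 3 E14.5 plates to 975, 872, 602 and 838 CPM, without overlap (log2 fold change 3.73 ± 0.58 SE, edgeR adjusted p = 2.59e-07). The share of cells with a count went from 10.3% to 23.8% on 10x and from 34.1% to 98.4% on Smart-seq2, and on 10x from 2.06% to 18.7% at 1000 UMIs. In all other cells *Itih5* also stood higher at E16.5, at 51.6 CPM against 23.1 CPM on 10x and at 196.5 CPM against 53.6 CPM on Smart-seq2. Of the 30 leading genes only *Itih5* passed the test as higher, and none was lower. The 30 were chosen on their E16.5 levels, which also enter this test, so the choice favours genes higher at E16.5. The median log2 fold change of the list was 0.55, against -0.04 for all genes. Its calls therefore cannot be weighed against the 0.263% of all genes that were higher. *Wif1*, *Crabp1* and *Nkd1* did not pass it: *Wif1* was at 49.8 and 354.1 CPM at E14.5 (adjusted p = 0.173), *Crabp1* at 3499 and 2707 CPM, and *Nkd1* at 164.5 and 483.5 CPM (both adjusted p = 0.999).

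*Notum*, a secreted enzyme that inactivates Wnt ligands by removing their lipid (chromosome 11, 120653788 to 120661175), fell to 0. At E14.5 it had a count in 19 10x dermal cells (9.79%) and 17 of 41 Smart-seq2 cells (41.5%), at 23.6 and 34.2 CPM. At E16.5 it had none on either platform, which allows a share of cells with a count of up to 1.01% and 4.84% at this depth. At equal depth the E14.5 shares were 2.58% (1000 UMIs) and 39.02% (100000 counts). Against a floor of 3 counts per sum it was at least 3.51-fold lower on 10x and at least 634-fold lower on Smart-seq2 (edgeR adjusted p = 1.64e-10), a call that DESeq2 did not make. These folds bound the summed counts of the cells measured, and not the share of cells with a count. Other cells of E14.5 had 0.409 CPM of *Notum* on 10x and none on Smart-seq2. *Sfrp1* also fell, from 58.2 to 4.48 CPM on 10x and from 42.1 to 7.19 CPM on Smart-seq2 (log2 fold change -2.59 ± 0.65 SE, adjusted p = 0.0147), and neither DESeq2 nor the plate sums called it. These 2 were the lower genes among 19 tested Wnt inhibitors and feedback genes of 21 (against 0.441% of all genes). None was higher, and the median log2 fold change of the list was 0.01. Of 10 tested Wnt ligands of 19 and 17 tested receptors of 18, none passed the test (medians -0.04 and -0.12).

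Among dermal condensate genes, 16 of 18 were tested and 2 were higher (against 0.263% of all genes), *Sox18* and *Trps1*, with none lower (median log2 fold change 0.71). *Sox18* went from 0.844 to 22.4 CPM on 10x. On Smart-seq2 it had no count in 41 cells at E14.5 and 93.2, 1.37, 49.4 and 91.9 CPM on the E16.5 plates, at least 1085-fold higher than a floor of 3 counts (adjusted p = 2.98e-14). *Trps1* rose from 13.5 to 91.9 CPM and from 53.3 to 205.8 CPM (log2 fold change 2.57 ± 0.55 SE, adjusted p = 0.00113). DESeq2 called both genes and the plate sums neither. The rise in *Sox18* rests on the 15 cells described above. *Bmp3* was at 2.53 and 2.24 CPM on 10x and at 1.22 and 34.5 CPM on Smart-seq2 (adjusted p = 0.0516).

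**Figure D4:**
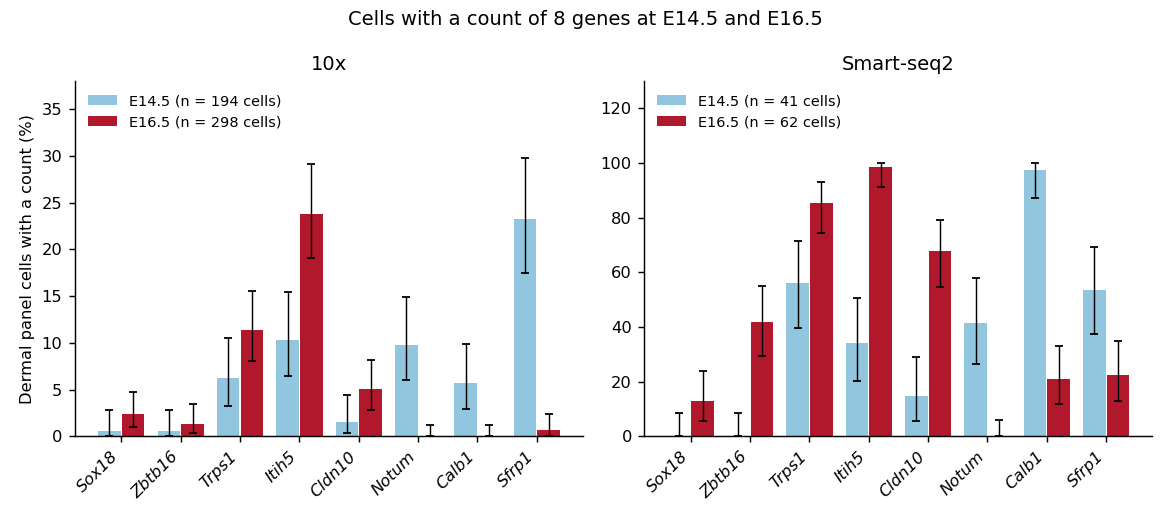
Percentage of dermal panel cells with a count of 8 genes at E14.5 (light blue) and E16.5 (red), on 10x (left) and Smart-seq2 (right, 41 and 62 cells), not thinned; bars start at 0 and error bars are 95% exact binomial intervals. *Notum* goes from 9.79% and 41.5% to 0 on both platforms, while *Itih5* reaches 23.8% and 98.4%.

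The 12 largest increases that went the same way on both platforms were led by genes seen in few cells. After *Sox18*, *Zbtb16*, a zinc finger repressor, was at 0.844 and 11.2 CPM on 10x and had a count in none of 41 and in 26 of 62 Smart-seq2 cells. *Prss23*, a secreted protease, was at 23.6 and 29.1 CPM on 10x and at 1.71 and 165.7 CPM on Smart-seq2, where the plates of the 2 days did not overlap (log2 fold change 4.12 ± 0.79 SE, adjusted p = 0.000133). *Chodl*, a membrane lectin, went from 0.844 to 20.2 CPM and from 0.709 to 32.7 CPM. *Cxcl2*, a neutrophil chemokine, went from 11.8 to 33.6 CPM and from 0 to 18.3 CPM. *Rarres2* (chemerin) went from 16.03 to 40.3 CPM and from 0.0180 to 9.19 CPM, and *Anxa1* (annexin A1) from 9.28 to 20.2 CPM and from 1.69 to 56.97 CPM. *Gm11541*, *Scnn1b*, *Syt6*, *Ly6a* and *Smim10l2a* completed the 12. *Gm11541* had counts in 3 10x and 4 Smart-seq2 cells, *Syt6* in 1 cell on each platform, and *Ly6a* in 6 and 3 cells, so few cells carry these calls.

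Of the 12 largest decreases, 11 were at 0 in all Smart-seq2 dermal fibroblasts of E16.5 and had no UMI on 10x, among them *Epha8*, *Notum*, *Col4a6*, *Dcaf12l1*, *Rassf7*, *Gm12258*, *Nr3c2*, *Zfp54*, *Scgn* and *Necab2*. *Sphkap* had a UMI in 1 10x cell. *Epha8*, an ephrin receptor, was found in 14 of 41 Smart-seq2 cells at E14.5, at 19.4, 48.3 and 36.3 CPM on the plates. Its sum was at least 737-fold lower at E16.5 against a floor of 3 counts (edgeR adjusted p = 2.83e-08). That fold bounds the summed counts and not the share of cells. On 10x *Epha8* had a UMI in 5 cells at E14.5. *Sphkap*, a kinase anchoring protein, was found in 19 of 41 cells, at 63.04 CPM. *Col4a6*, a basement membrane collagen, was found in 8 of 41 cells and in 1 10x cell. *Nr3c2* (the mineralocorticoid receptor) was found in 6 Smart-seq2 cells. Chosen after its values were seen, *Calb1*, the calcium buffer calbindin, went from 16.03 to 0 CPM on 10x and from 76.6 to 0.226 CPM on Smart-seq2, with the plates of the 2 days apart (50.9 to 233.3 CPM against 0.0523 to 0.450 CPM; adjusted p = 3.01e-10).

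Of the matrix lists, the collagens held calls. Of 29 collagen genes, all tested, none was higher and 4 were lower (against 0.441% of all genes), *Col2a1*, *Col4a6*, *Col8a2* and *Col11a1*, although the median log2 fold change of the list was 0.64. *Col1a1* was at 2259.9 CPM at E14.5 and 7236 CPM at E16.5 on 10x and at 14426 and 23465 CPM on Smart-seq2 (log2 fold change 1.45 ± 0.56 SE, adjusted p = 0.385). *Sparc*, a collagen-binding glycoprotein, was at 1542 and 3086 CPM and at 1917 and 6058 CPM (1.59 ± 0.54 SE, adjusted p = 0.226). These differences did not pass the test. *Col2a1*, the collagen of cartilage, had UMIs in 8 E14.5 cells (170 CPM) and in 1 at E16.5. Cartilage and tendon markers, the list it belongs to, summed to 303.7 CPM at E14.5 and 49.3 CPM at E16.5 on 10x, and *Col2a1* and *Acan* were its 2 lower genes among 6 tested of 8. None of 11 tested proteoglycans of 14 (median 0.52), 18 tested elastic fibre genes of 19 (-0.14), 21 tested adhesive and other matrix genes of 22 (0.33) or 25 collagen processing and matrix enzymes (0.26) passed the test.

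**Figure D5:**
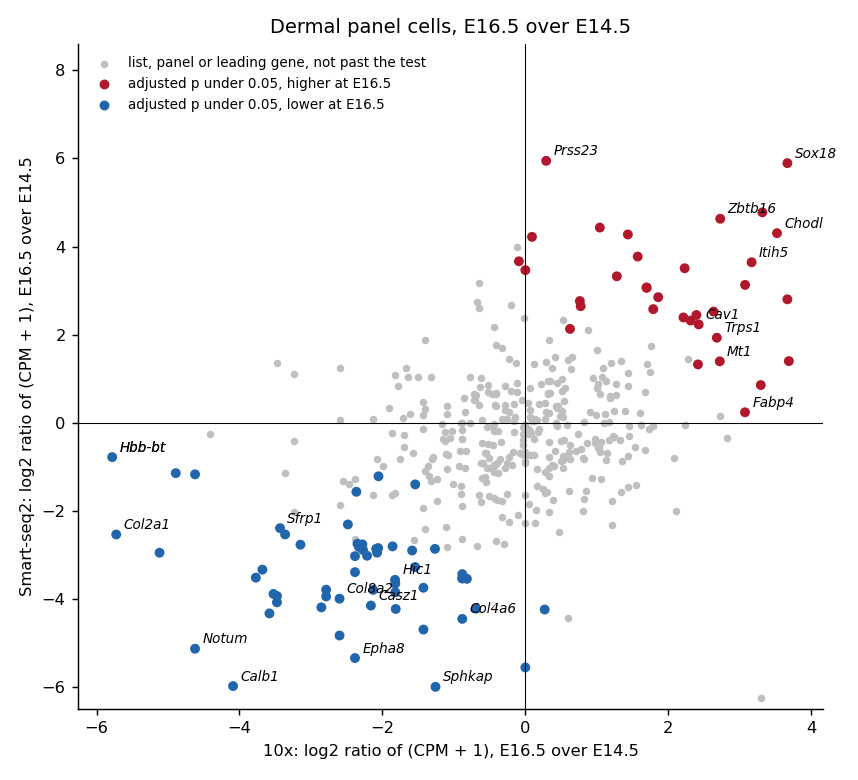
Log2 ratio of (CPM + 1) at E16.5 over E14.5 in dermal panel cells, on 10x (horizontal axis) and Smart-seq2 (vertical axis); red and blue points are the 34 higher and 57 lower genes of the edgeR test, and grey points are the list, panel and leading genes that did not pass it. *Sox18* and *Itih5* lie at the upper right, *Notum* and *Calb1* at the lower left, while *Prss23* lies near 0 on the 10x axis.

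For the position and regulator lists, the share of all genes called in either direction was 0.705%, and a short list without a call lies at that background. None of the 14 upper dermis genes passed the test (median log2 fold change 0.19). Of 14 tested lower dermis and hypodermis genes of 15, *Ly6a* was higher and *Gpx3* lower (median -0.12). Of 26 tested transcription factors of 28, *Hic1*, a repressor of mesenchymal progenitors, fell from 81.8 to 22.4 CPM and from 68.8 to 4.87 CPM (log2 fold change -2.75 ± 0.61 SE, adjusted p = 0.00205), and none was higher. No gene passed among 13 tested retinoid pathway genes of 16 (median 0.06), 27 tested growth factors and receptors of 29 (0.09), 6 Igf binding proteins (-0.29), 30 cell cycle genes (-0.23) and 6 tested cyclin-dependent kinase inhibitors of 7 (0.01). *Cyp26b1* was at 51.5 and 37.995 CPM at E14.5 (log2 fold change 1.72 ± 0.52 SE, adjusted p = 0.0981). Of 14 tested adipogenic genes of 16, *Fabp4*, a panel gene, and *Rgcc* were higher. *Fabp4* went from 8.44 to 78.4 CPM on 10x with 0.0180 and 0.198 CPM on Smart-seq2, while in all other 10x cells it went from 21.9 to 2030.3 CPM. Its call thus moved with the level of *Fabp4* RNA in the whole 10x library, whose part in it was not tested.

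Of the lists of other cell types, the red cell list held 2 lower genes among 4 tested of 6 (against 0.441% of all genes). *Hbb-bt*, a beta-globin, had a UMI in 52 10x dermal cells at E14.5 and in none at E16.5, and all other 10x cells went from 49.6 to 0 CPM as well. The red cell list summed to 114.7 and 4.48 CPM on the 2 days. No gene passed among 4 tested keratinocyte, 2 endothelial, 4 melanocyte and Schwann, 5 muscle and 2 pericyte genes, no immune gene could be tested, and *Fabp4* was the higher gene of 4 tested brown adipocyte genes. *Mt1*, a metallothionein chosen after its values were seen, went the same way in other cells. It rose from 188.1 to 1246 CPM on 10x and from 16.2 to 44.2 CPM on Smart-seq2 (adjusted p = 0.00527), and all other cells went from 99.7 to 715 CPM and from 1.74 to 82.1 CPM. *Hspa1a*, a heat shock gene, went opposite ways on the platforms, from 2.53 to 33.6 CPM on 10x and from 783 to 9.31 CPM on Smart-seq2 (adjusted p = 0.640).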

How the data were processed

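Single cells from embryos of the *Pax7* lineage were measured on 10x (UMI counts of 17634 genes) and Smart-seq2 (22894 genes). The 10x counts were deposited by the authors as whole numbers, made with Cell Ranger on GRCm38. The Smart-seq2 expected counts were deposited by the authors from kallisto 0.44.0, run on mouse transcripts plus YFP, then summed to genes and not normalized. Both tables hold a YFP row. A further bulk table has 18 columns whose names could not be matched to single samples, and it was not used here. The members, panels and gene lists were chosen with earlier results of these data known.

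Counts of the 15147 genes in both tables were summed over dermal cells per platform and day, and Smart-seq2 expected counts were rounded. E16.5 was compared with E14.5 in edgeR 4.0.16 (R 4.3.3, filterByExpr, TMM, quasi-likelihood test, platform as a term, Benjamini-Hochberg adjusted p under 0.05), after tests on simulated data. The simulated sums held no pool or batch effect, so those tests say nothing about how the comparison behaves with one. SE is the fold change divided by the root of F. Ratios between classes use CPM + 1. Depth is at most 3833 UMIs per 10x member (median 1406.5) and 65625 to 1620260 expected counts per Smart-seq2 member.

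Genes were named by rule: the panel; the 30 leading genes outside the 9 panels; the 12 largest increases and 12 largest decreases past the test with the same sign on both platforms; and up to 5 genes per list. Where the text names every gene of a list past a limit, the further names were added after their values were seen. Alternatives were score thresholds of 0.5 and 1.0, a limit of 8% mitochondrial counts, a margin of 0.3 between panels, the rule after thinning, DESeq2 1.42.0, no low-count filter, and Smart-seq2 sums per plate. Gene positions are from GENCODE vM21 (GRCm38). Doublets were neither called nor removed. Some genes that the rule would name are not reported here.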

Additional observations from a re-analysis of the deposited data

Results flagged for a closer look

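The rule also found dermal panel cells at E12.5, a day that enters none of the comparisons: 24 of 1017 10x cells (2.36%, 95% exact binomial interval 1.52% to 3.49%) and 8 Smart-seq2 cells (2.55% of that day's cells, 1.11% to 4.96%). They were singled out because that day was otherwise not analysed, and their number was not tested. Their dermal score was lower, with a median of 0.948 on 10x and 1.43 on Smart-seq2. *Twist2* stood at 420 CPM in them on 10x and 247.4 CPM on Smart-seq2, *Egfl6* at 452.6 and 468.5 CPM, and *Crabp1* at 549.6 and 524.1 CPM. *Twist2*, *Egfl6* and *Thy1* belong to the panel that chose these cells, so their levels are a description. The level of *Lum*, the remaining panel gene, is not given here. *Thy1* had a UMI in 1 of the 24 cells, and *Wif1* had a count in none of the 24 and in 1 of the 8.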

How the results depend on the processing

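Under the 5 other rules the 10x members numbered 84.6% to 100.3% of those reported, and the Smart-seq2 members 61 or 62. The count of lower genes was 24 with DESeq2 (26 higher), and the count of higher genes was 120 with Smart-seq2 sums per plate (52 lower). The cause was not tested. Under all other settings 30 to 35 genes were higher and 47 to 56 lower. Of the 91 genes, 45 were also called by DESeq2 and 19 by plate sums. Of the 24 genes named for their change, those given an adjusted p kept direction in every setting; 6 of 22 passed with plate sums and 12 of 17 with DESeq2. No paired analysis was possible because the single-cell pools carry no replicate numbers and the bulk columns could not be matched to samples; the alternatives planned for the bulk libraries were not run. Leaving out a sum leaves no residual degree of freedom, so that was not run as a test, and the values per platform stand in the report. Depth limits the 10x values: 3 counts are 6.72 CPM in the E16.5 sum and 2.53 CPM in the E14.5 sum.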
